A study of Mus musculus with 6 samples.

Results

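Genes of the cAMP, protein kinase A (PKA) and CREB pathway were examined in the suprachiasmatic nucleus (SCN) of mice at the end of a light pulse. They were chosen by a rule on gene symbols, with earlier results of these data known. The symbols covered adenylyl cyclases (Adcy), cyclic nucleotide phosphodiesterases (Pde), catalytic and regulatory subunits of PKA (Prkac, Prkar) and A-kinase anchoring proteins (Akap). They also covered the transcription factors Creb, Crem and Atf1, and the coactivators Crebbp and Crtc. The symbols matched 45 of the 12393 genes that the arrays named with 1 symbol, and these 45 genes were read by 80 probe sets. The light pulse group had 30 minutes of light at 2400 lux starting 1 hour after lights off. The sham light pulse group had a 30-minute dark pulse at the same time. In both groups the animals were adult male C57BL/6 mice of 2 to 4 months, kept in a 14:10 light/dark cycle, with no transgene or mutation named in the labels. Brains were taken at once after the pulse, the SCN was lifted from stained 12 μm sections by laser capture microscopy, and each array held RNA pooled from 3 mice. There were 3 light pulse arrays and 3 sham light pulse arrays, all Affymetrix Mouse 430A 2.0.

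cAMP is made from ATP by adenylyl cyclases when a receptor coupled to a stimulatory G protein is active, and it is broken down by phosphodiesterases. It binds the regulatory subunits of PKA and frees the catalytic subunits, which phosphorylate CREB on its kinase-inducible domain; anchoring proteins hold PKA near its substrates. Phosphorylated CREB binds the coactivator CBP (Crebbp) and drives transcription from cAMP response elements (CREs), and in the SCN light at night leads to CREB phosphorylation and to the induction of genes with CREs. These steps act on proteins, whereas the arrays measured transcripts.

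The value of a probe set was its signal, the brightness in arbitrary units on a linear scale that the MAS5 algorithm gave after each array was scaled. Signals of different probe sets depend on their sequences, so levels are compared between groups and not between genes. Probe sets were kept for testing by their rank 3 signal over the 6 arrays, which left 10340 of 22626, and the lowest rank 3 signal kept was 118.2. By this filter 35 of the 80 probe sets and 23 of the 45 genes were tested, each gene by its probe set with the highest mean log2 signal. The other 22 genes did not pass the filter, and 14 of them stayed below that signal on all arrays. A low signal does not show that a transcript was absent.

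The arrays carried the transcripts that mark the SCN. All 10 measured SCN markers were kept, and their signals summed to between 81614 and 104183 per light pulse array, against 68765 to 80195 per sham light pulse array. That separation came from Vip, at 43194 to 64589 on the light pulse arrays and 30271 to 41960 on the sham light pulse arrays. Without Vip the other 9 summed to 38420 to 39594 (light pulse) and 36562 to 38494 (sham light pulse), which overlap. Signals of other cell types also differed between arrays. On light pulse replicate 3 the choroid plexus transcript Ttr had a signal of 110323, against at most 295.6 on the other arrays. The other choroid plexus markers measured, Kl, Folr1 and Otx2, did not pass the filter. Kl and Folr1 were also highest on that array, at 72.7 (at most 16.4 on the others) and 147.3 (at most 89.6). Otx2 was not, at 3.7 there and 2.2 to 11.4 over all arrays. The 6 endothelial markers summed to 912.3 to 1294 on the light pulse arrays and 1318.5 to 1873 on the sham light pulse arrays. Of these Cldn5 and Flt1 were kept. Flt1 had 291.6, 72.6 and 158.9 on the light pulse arrays, against 505.4, 325.5 and 511.7 on the sham light pulse arrays. Cldn5 had 876.4, 733.8 and 535.1 on the light pulse arrays, against 1174, 784.3 and 998.0 on the sham light pulse arrays, which overlap. Without Flt1 the sums of 839.7 to 1002.5 (light pulse) and 993.0 to 1368 (sham light pulse) overlapped, but only narrowly. The summed signals of the markers of astrocytes, oligodendrocytes, microglia and neighbouring hypothalamic neurons overlapped between the groups. The part of these differences in the results below was not tested. In tissue samples, fewer cells of a type and less RNA per cell cannot be told apart.

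None of the pathway genes differed significantly after the light pulse. By limma, which fits each probe set and borrows its variance estimate partly from the others, 0 of the 35 kept probe sets were called at an adjusted p under 0.05, against a background of 0.0677% of all probe sets tested (7 of 10340). The Cyber-T test, a Bayesian test with a like purpose, also called 0, against 0.0484% of all. Without adjustment, 0 member probe sets were higher and 1 was lower at a p under 0.05 in limma, where 2.11% and 2.21% of all probe sets tested lay, and Cyber-T gave the same counts. Counted by gene, 0 of 23 had such a p, beside 4.14% of all genes tested. The smallest adjusted p among the kept probe sets was 0.960 from limma. Of the 23 genes, 14 had fold changes above 1 and 9 below, with a median log2 change of 0.07, beside 0.00 over the 6739 genes tested. The log2 change is the log2 of the fold change, light pulse over sham light pulse, and is given with its standard error (SE). In 22 of the 23 genes the estimate lay within 2-fold. For 10 of the 23 (43.5%) the whole 95% confidence interval lay within 2-fold, near the 45.3% among all genes tested, so for the other 13 a 2-fold change was not outside the interval.

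**Figure D1:**
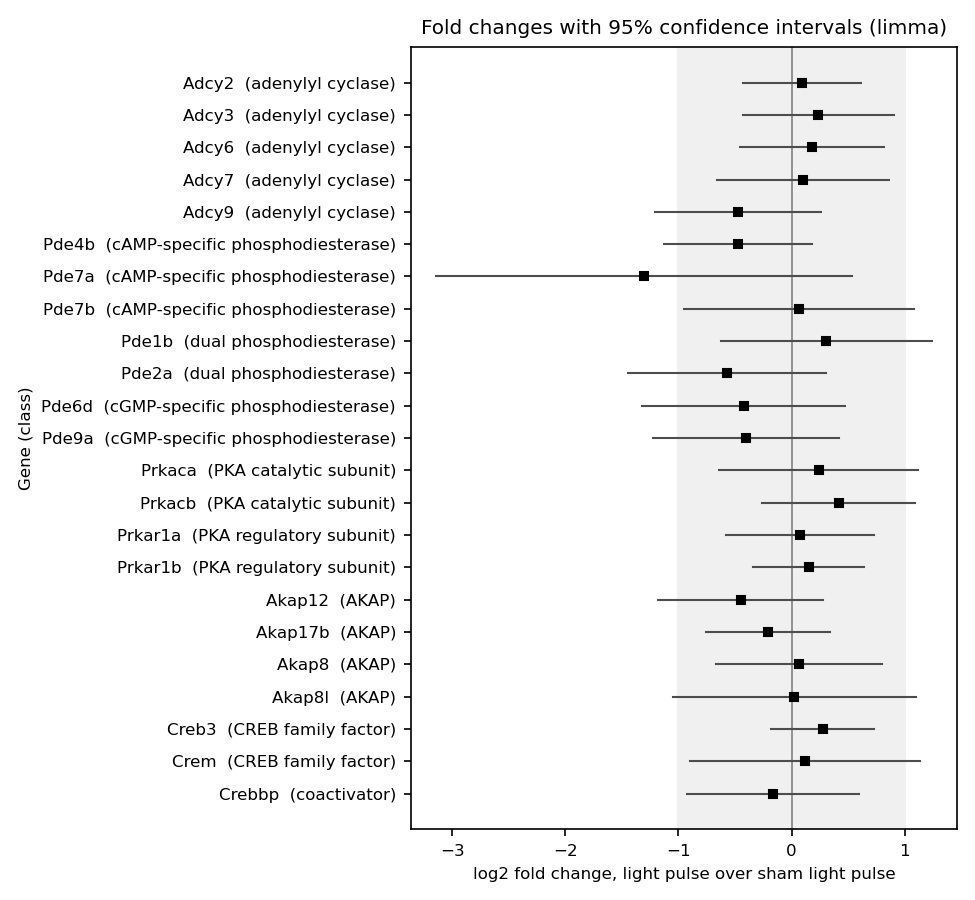
Log2 fold changes of the 23 tested pathway genes, light pulse over sham light pulse, by class; squares are limma estimates over 3 arrays per group, bars are 95% confidence intervals, and the grey band marks changes within 2-fold. Every interval crosses 0, and only the estimate of Pde7a lies outside the band, at -1.31 here and at -0.71, inside it, with an offset of 50.

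Several genes listed as targets of CREB passed the same test. Of 16 measured genes of that list 9 were tested, and the rest did not pass the filter. Of the 9 tested, 5 rose after the light pulse and 0 fell by limma, beside 0.104% of all genes tested (7 of 6739). By Cyber-T 4 passed, and the median log2 change was 2.66. The list holds genes that were picked as light-induced from these same arrays, so its count is not independent evidence of its direction, and whether they rose through a CRE was not tested. Fos, an activity-induced transcription factor, had signals of 14254, 10400 and 14457 on the light pulse arrays, against 667.7, 297.6 and 370.0 on the sham light pulse arrays. Dusp1, a phosphatase of MAP kinases, had 2708, 2611 and 3059 on the light pulse arrays, against 314.1, 759.9 and 361.5 on the sham light pulse arrays, a log2 change of 2.66 (SE 0.34, adjusted p = 0.00434 from limma). The other 3 were Egr1, Egr2 and Nr4a1. Egr2 passed the filter only through the light pulse arrays. Its sham light pulse signals were 32.2, 94.3 and 3.1, near the floor, so the size of its change is uncertain. Ppargc1a, a coactivator of mitochondrial genes, was the 1 tested gene of that list below 0, at -0.82 (SE 0.36, adjusted p = 0.960).

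**Figure D2:**
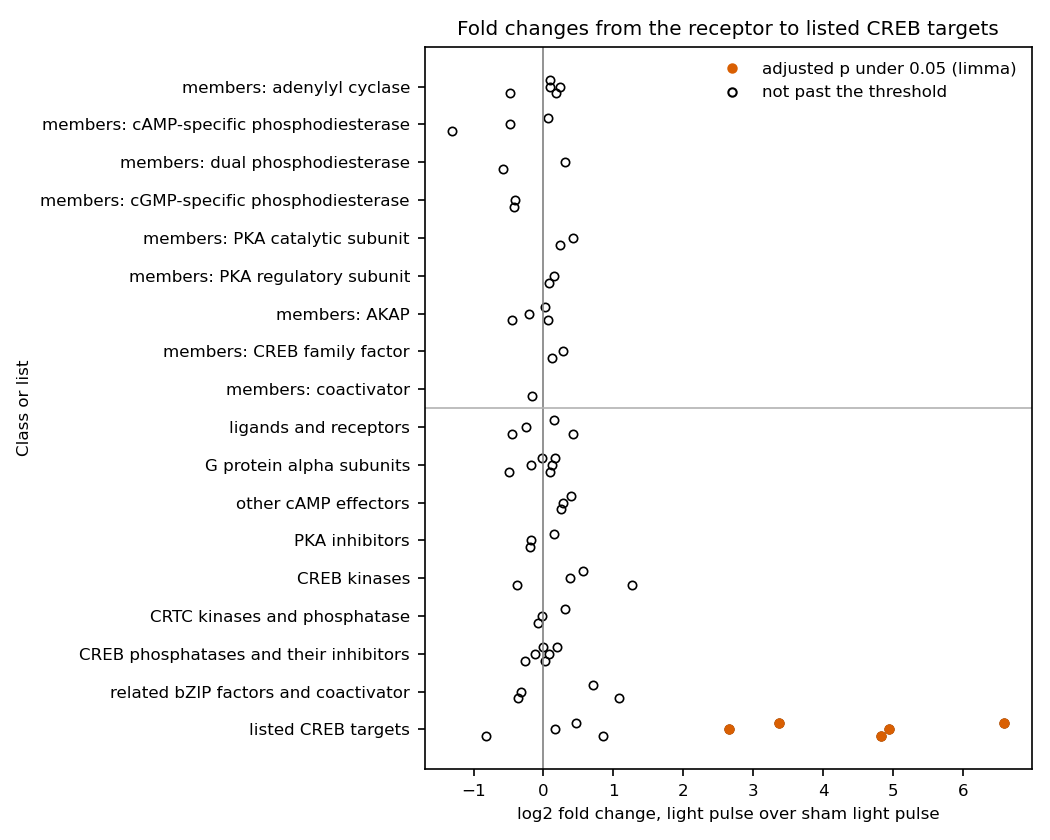
Log2 fold changes, light pulse over sham light pulse, with 1 point per tested gene; member classes lie above the grey line and other lists of the pathway below it, and filled points passed limma's test at an adjusted p under 0.05. The 5 filled points are all listed CREB targets, between 2.66 and 6.59. The highest is Egr2, whose sham light pulse signals lay below the filter's lowest rank 3 signal, so its size is uncertain.

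Adenylyl cyclases were measured by 7 genes, of which 5 were tested, with a median log2 change of 0.10 and values above 0 in 4. Adcy2, a cyclase stimulated by G protein βγ subunits, had the steadiest signal of the tested members, at 2232, 2891 and 2697 on the light pulse arrays and 2234, 2512 and 2561 on the sham light pulse arrays. The highest of these 6 signals was 1.30 times the lowest. The log2 change of 0.09 had a 95% confidence interval from -0.43 to 0.61. Adcy3, the cyclase of olfactory neurons and primary cilia, had signals of 802.9, 1052 and 969.8 on the light pulse arrays and 665.4, 649.5 and 1157 on the sham light pulse arrays, where 1 sham light pulse array exceeded all 3 light pulse arrays. This gave a log2 change of 0.24 (SE 0.31). The other kept probe sets of Adcy3 gave 0.40 (SE 0.32) and -0.16 (SE 0.88), the last from signals of 26.7 to 152.2. Adcy6, a cyclase that calcium inhibits, and Adcy7 had log2 changes of 0.18 (SE 0.30) and 0.10 (SE 0.35). The tested Adcy7 probe set ends in _s_at, so it may read more than 1 transcript. The gene's other probe sets, 1420970_at and 1450065_at, had signals of 2.6 to 63.1 and 2.4 to 55.8 and were not kept.

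Adcy9, a widely expressed cyclase that forskolin stimulates poorly, was the 1 tested cyclase below 0. Its signals were 633.3, 393.7 and 293.6 on the light pulse arrays, against 651.0, 587.9 and 509.6 on the sham light pulse arrays. The log2 change was -0.47 (SE 0.34, adjusted p = 0.960 from limma), and light pulse replicate 1 lay inside the sham range. The other 2 kept probe sets of Adcy9 had the same sign, at -0.65 (SE 0.39) and -0.26 (SE 0.53). Adcy8, which calcium and calmodulin stimulate, had signals of 77.0 to 130.7 and was not kept. Adcy4 had 151.3 on light pulse replicate 3, the array with the high Ttr signal, and at most 10.2 on the other arrays.

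**Figure D3:**
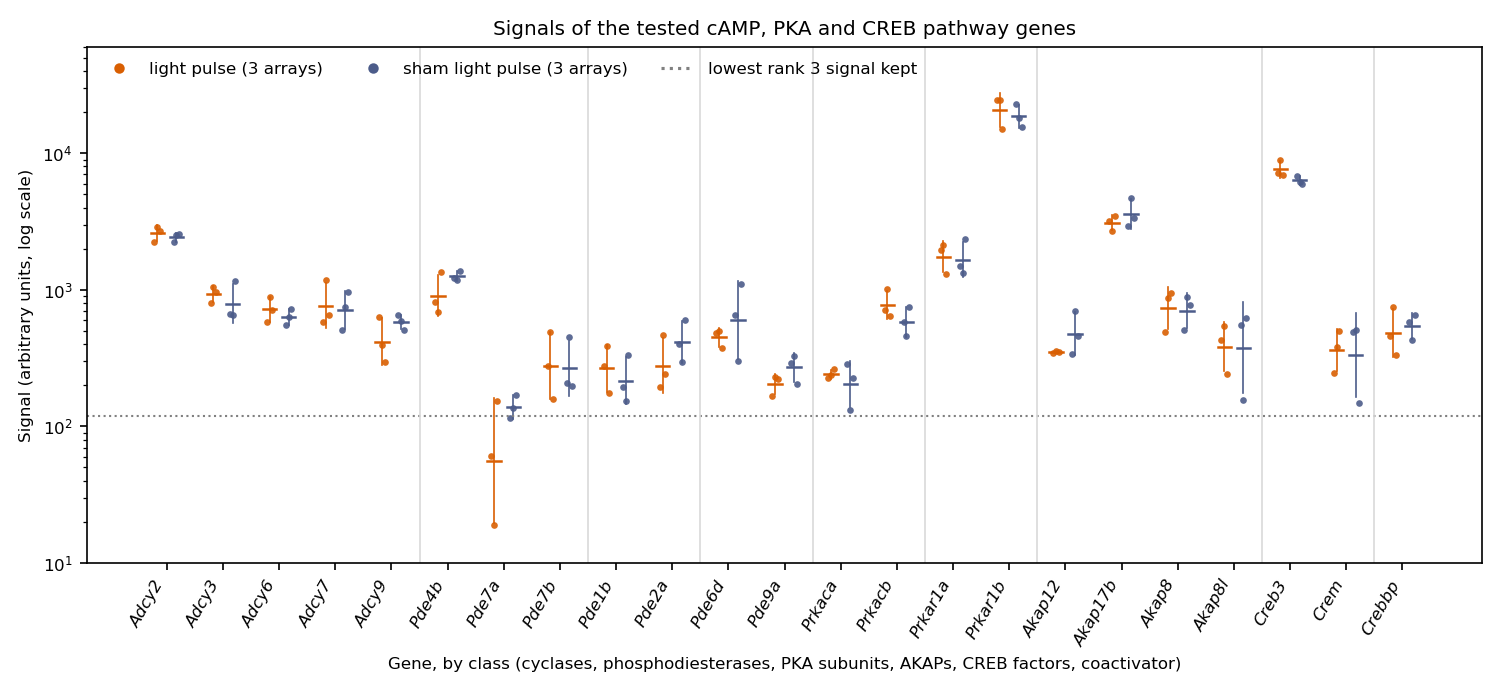
Signals (arbitrary units, log axis) of the 23 tested genes by class, with 1 point per array (light pulse left, sham light pulse right); each cross gives the mean and SD of the log2 signals, and dots trace the filter's lowest rank 3 signal, 118.2. The groups overlap in every gene but Creb3.

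Phosphodiesterases break down cyclic nucleotides, and 16 genes matched, of which 7 were tested. They had a median log2 change of -0.42, with 2 genes above 0 and 5 below, and none was called. Of the 7, 5 act on cAMP (3 of them cAMP-specific and 2 on cGMP as well), and Pde6d and Pde9a do not. Pde4b, a cAMP-specific enzyme and a target of the drug rolipram, had signals of 815.8, 685.9 and 1341 on the light pulse arrays, against 1228, 1188 and 1380 on the sham light pulse arrays. Light pulse replicates 1 and 2 lay below all sham light pulse arrays and replicate 3 inside their range. Its log2 change was -0.47 (SE 0.31, adjusted p = 0.960 from limma), and it stayed between -0.76 and -0.27 with any 1 array left out. Pde7a, also cAMP-specific, had 60.6, 19.0 and 154.4 on the light pulse arrays, against 114.6, 137.1 and 170.9 on the sham light pulse arrays. Its log2 change of -1.31 was the lowest of the tested genes, but its signals straddled the filter and the 95% confidence interval ran from -3.15 to 0.54. The value was -0.52 without light pulse replicate 2, -2.03 without light pulse replicate 3 and -0.71 with an offset of 50 added to every signal. Pde7b, a relative of Pde7a expressed in brain, had 276.5, 491.7 and 157.8 on the light pulse arrays and 208.7, 452.8 and 197.9 on the sham light pulse arrays, with a log2 change of 0.07 (SE 0.47).

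Among the enzymes that break down both cAMP and cGMP, Pde2a and Pde1b were tested. Pde2a, which cGMP activates, had signals of 193.6, 465.6 and 241.2 on the light pulse arrays, against 401.7, 295.5 and 603.5 on the sham light pulse arrays. The difference was -0.57 on the log2 scale (SE 0.41), and the groups overlapped through light pulse replicate 2. Pde1b, which calcium and calmodulin activate, had 277.2, 389.3 and 176.0 on the light pulse arrays, against 195.3, 154.1 and 332.9 on the sham light pulse arrays, a log2 change of 0.31 (SE 0.43). Pde9a, a cGMP-specific enzyme of high affinity, had 168.3, 229.4 and 220.9 on the light pulse arrays, against 293.2, 328.2 and 205.2 on the sham light pulse arrays, at -0.40 (SE 0.38). Pde6d, a prenyl-binding protein that was named as a subunit of the photoreceptor enzyme and breaks down no cyclic nucleotide, had a log2 change of -0.42 (SE 0.42). The 3 catalytic Pde6 genes of rods and cones, Pde6a, Pde6b and Pde6c, had signals of 1.8 to 68.8 and were not kept.

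Of the 45 member probe sets below the filter, 4 had higher signals on all light pulse arrays, beside 7.58% of all probe sets below the filter, and 0 had lower, beside 2.95%. They read Pde1c, at both of its probe sets, Pde4a and Pde6c. Pde1c, a calmodulin-activated enzyme, had 87.6, 50.8 and 148.2 on the light pulse arrays, against 47.8, 20 and 15.1 on the sham light pulse arrays. Its second probe set had 9.7, 13.6 and 8.2 on the light pulse arrays, against 2.9, 2.2 and 5.6 on the sham light pulse arrays. Pde4a had 68.9, 57.9 and 46.3 on the light pulse arrays, against 28.4, 44.6 and 2.7 on the sham light pulse arrays. Pde6c was the other. These signals lay near the floor, and no fold is drawn from them; with every probe set of the table in the fit, limma called 0 of the 80.

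Both catalytic subunits of PKA and 2 of 3 regulatory subunits were tested, and none was called. Prkacb, a catalytic subunit abundant in brain, had signals of 706.4, 1019 and 647.3 on the light pulse arrays, against 576.4, 455.5 and 746.9 on the sham light pulse arrays. Its log2 change of 0.42 (SE 0.32, adjusted p = 0.960 from limma) was the highest of the tested members, and a sham light pulse array lay above 2 of the light pulse arrays. Prkaca, the catalytic subunit expressed in most tissues, had 224.8, 238.2 and 261.8 on the light pulse arrays, against 284.6, 132.6 and 224.6 on the sham light pulse arrays, for a log2 change of 0.24 (SE 0.41). Prkar1a, a type I regulatory subunit, had 1950, 2121 and 1302 on the light pulse arrays, against 1487, 1326 and 2339 on the sham light pulse arrays. Its log2 change was 0.07 (SE 0.30) at this probe set and -0.18 (SE 0.31) at the other, so the sign depended on the probe set. Prkar2a, a type II regulatory subunit, had signals of 2.9 to 26.2 and was not kept.

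Prkar1b, the neuronal type I regulatory subunit, was read by 3 kept probe sets that differed. The probe set that stands for the gene, 1434325_x_at, had 24407, 24362 and 14971 on the light pulse arrays, against 22950, 18248 and 15534 on the sham light pulse arrays. The estimate was 0.15 on the log2 scale (SE 0.23). The ending _x_at marks probes that may also bind other transcripts. Probe set 1416754_at had 194.0, 308.0 and 251.5 on the light pulse arrays, all above the 144.5, 145.6 and 167.6 on the sham light pulse arrays, with a log2 change of 0.70 (SE 0.41, adjusted p = 0.960 from limma). At probe set 1416753_at the groups overlapped, with a log2 change of -0.12 (SE 0.42).

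Short promoter windows of these genes were searched for exact matches to a CRE. Windows of 300 bases, from 250 before to 50 after each annotated start site, were taken from RefSeq (build GRCm38.p6) for 34 of the 45 genes and read on the gene's strand. The full palindromic CRE, TGACGTCA, was searched, and so was its half-site on both strands, TGACG or CGTCA, which the full CRE contains. The full CRE lay in a window of 1 of the 34 genes, Prkar1a (2.94%), beside 2.03% of all 27025 genes with a window. A half-site lay in 13 of the 34 (38.2%), beside 23.0% of all genes, but the members had more windows per gene. By window the shares were 21.4% of 70 member windows and 20.8% of all 32851. A match is a description of letters and not a bound site. Elements outside the windows or with other letters were not searched, nor were the genes without a window. A gene without a match may therefore still hold a CRE. The Prkar1a window (chr11:109650699-109650998, plus strand) is printed whole because it holds the full CRE, 49 bases before the start site (a second window of the gene, from a start site upstream, overlaps it and holds the same CRE). Capitals mark the full CRE and a separate half-site.

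Prkar1a: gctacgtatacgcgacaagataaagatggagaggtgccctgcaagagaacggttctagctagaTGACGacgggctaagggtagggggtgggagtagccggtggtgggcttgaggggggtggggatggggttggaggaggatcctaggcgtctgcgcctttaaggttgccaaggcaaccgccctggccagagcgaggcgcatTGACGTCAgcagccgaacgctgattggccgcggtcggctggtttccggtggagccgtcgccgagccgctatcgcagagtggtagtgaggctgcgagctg

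For comparison, stretches around the half-sites of 5 other tested members and around the elements of Dusp1 and Fos, listed CREB targets that rose, are shown with CREs and half-sites in capitals. The Prkacb half-site lies 102 bases before the start site (chr3:146813024-146813068, minus strand), that of Adcy9 24 bases before (chr16:4420498-4420542, minus strand), that of Pde4b 34 bases before (chr4:102421501-102421545, plus strand), and that of Adcy7 28 bases before (chr8:88282944-88282988, plus strand). Prkaca has 2, at 120 and 6 bases before the start site (chr8:83972838-83972996, plus strand). Each position is counted from the start site of the window shown. Prkacb, Pde4b, Adcy7 and Prkaca have 3, 4, 3 and 2 windows. Dusp1 (chr17:26508588-26508683, minus strand) holds a half-site and a full CRE, and Fos (chr12:85473741-85473848, plus strand) holds 2 half-sites and no full CRE.
Prkacb: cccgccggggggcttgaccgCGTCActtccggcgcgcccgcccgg
Adcy9: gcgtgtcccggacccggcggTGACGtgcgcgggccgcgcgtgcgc
Pde4b: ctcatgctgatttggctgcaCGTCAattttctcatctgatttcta
Adcy7: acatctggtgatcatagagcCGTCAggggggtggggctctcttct
Prkaca: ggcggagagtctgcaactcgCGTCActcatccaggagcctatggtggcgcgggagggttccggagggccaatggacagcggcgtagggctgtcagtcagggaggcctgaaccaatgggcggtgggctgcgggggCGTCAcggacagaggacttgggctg
Dusp1: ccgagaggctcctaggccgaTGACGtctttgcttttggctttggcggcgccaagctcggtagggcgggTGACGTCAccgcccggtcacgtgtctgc
Fos: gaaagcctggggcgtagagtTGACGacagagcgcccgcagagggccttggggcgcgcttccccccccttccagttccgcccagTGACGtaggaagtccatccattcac
Of the 13 members with such an element 9 were tested, and their signs were not alike. Prkar1a, Prkaca, Prkacb, Adcy7, Prkar1b and Akap8l had log2 changes of 0.07, 0.24, 0.42, 0.10, 0.15 and 0.03, while Adcy9 and Pde4b each had -0.47 and Pde2a had -0.57. None of these passed the test.

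Anchoring proteins were measured by 11 genes, of which 4 were tested, 2 above and 2 below 0. Akap12, a scaffold for PKA and receptors at the membrane, had signals of 342.8, 356.3 and 350.6 on the light pulse arrays, against 340.0, 699.8 and 459.9 on the sham light pulse arrays. The light pulse signals were close to each other, while those of the sham light pulse arrays spread over a 2-fold range. The log2 change was -0.45 (SE 0.34, adjusted p = 0.960 from limma). Akap17b had 3214, 2695 and 3449 on the light pulse arrays, against 2922, 4726 and 3354 on the sham light pulse arrays, at -0.21 (SE 0.26). Akap8, an anchoring protein of the nucleus, had 493.9, 866.7 and 940.2 on the light pulse arrays, against 508.2, 886.5 and 778.6 on the sham light pulse arrays. The log2 change was 0.07 (SE 0.34), and its second kept probe set gave 0.06 (SE 0.32). Akap8l, a nuclear relative of Akap8, had 0.03 (SE 0.50).

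The 7 anchoring proteins below the filter included the mitochondrial Akap1, with signals of 104.3 to 195.5 on the light pulse arrays and 19.5 to 116.9 on the sham light pulse arrays at its higher probe set. They also included Akap9, an anchor of the centrosome and Golgi, at 2.1 to 81.6, and Akap3 and Akap4, proteins of the sperm tail. Akap4 reached at most 25.0 at any of its 3 probe sets.

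Of the CREB family factors Crem and Creb3 were tested, and neither was called. Creb1, which encodes CREB itself, had low signals at all 4 of its probe sets. The highest, 1423402_at, had 4.3, 96.6 and 13.5 on the light pulse arrays, against 85.2, 136.8 and 66.2 on the sham light pulse arrays. The other 3 stayed between 1.6 and 73.5. No fold is drawn from these signals. Crem, which encodes a modulator of CRE transcription and, from an internal promoter, the repressor ICER, had 245.8, 383.3 and 500.0 on the light pulse arrays, against 489.0, 510.9 and 147.3 on the sham light pulse arrays. Both groups spread over a 2-fold range or more, and the log2 change of 0.12 had a 95% confidence interval from -0.90 to 1.14. The other probe sets of Crem were below the filter, with 107.2, 3.3 and 4.3 on the light pulse arrays, against 93.3, 64.8 and 69.1 on the sham light pulse arrays, at 1449037_at.

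Creb3, a factor anchored in the endoplasmic reticulum and matched here by its symbol, had 4 kept probe sets that pointed in opposite directions. At 1419979_s_at, which stands for the gene, signals of 7197, 8976 and 6903 on the light pulse arrays lay above the 6855, 6156 and 5981 on the sham light pulse arrays. The log2 change was 0.27 (SE 0.21, adjusted p = 0.960 from limma), and Creb3 was the 1 gene of 23 whose light pulse signals all lay above, beside 5.74% of all genes tested, while 0 lay below, beside 4.38%. At 1424740_at the signals of 283.9, 300.6 and 243.7 on the light pulse arrays all lay below the 303.3, 595.0 and 653.7 on the sham light pulse arrays. This was the member probe set with an unadjusted p under 0.05 (log2 change -0.83, SE 0.36, adjusted p = 0.960 from limma). At 1424742_at signals of 175.9, 216.8 and 194.5 on the light pulse arrays lay above the 131.4, 11.1 and 160.4 on the sham light pulse arrays, with a log2 change of 1.66 (SE 0.90) that was 0.43 without sham light pulse replicate 2, the array at 11.1. At 1424741_s_at the groups overlapped, at -0.17 (SE 0.32). The ending _s_at marks probes shared by several transcripts. Over all 35 kept probe sets, 3 lay wholly above and 1 wholly below, which are Creb3 and Prkar1b probe sets, beside 5.62% and 4.46% of all probe sets tested.

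**Figure D4:**
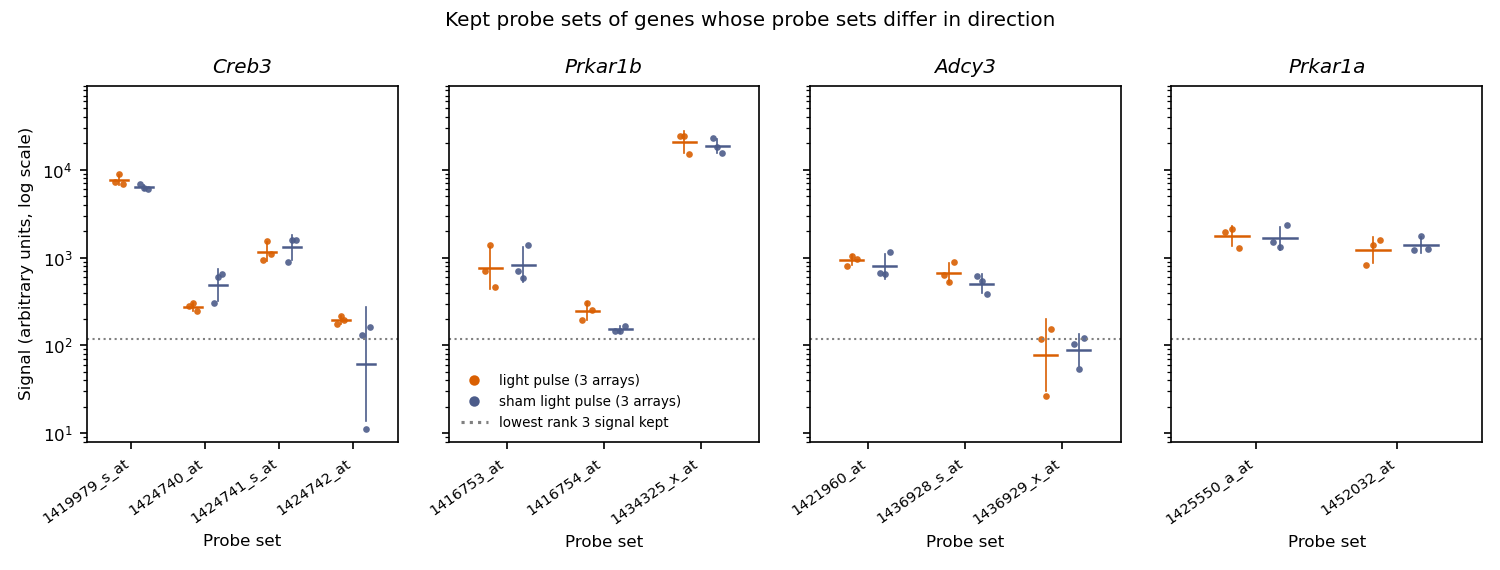
Signals (arbitrary units, log axis) at the kept probe sets of Creb3, Prkar1b, Adcy3 and Prkar1a, with 1 point per array (light pulse left, sham light pulse right); each cross gives the mean and SD of the log2 signals, and dots trace the filter's lowest rank 3 signal. Probe set 1424740_at of Creb3 is lower on all light pulse arrays, while 1419979_s_at and 1424742_at are higher.

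Of the coactivators Crebbp was tested. Crebbp encodes the acetyltransferase CBP that binds phosphorylated CREB, and it had signals of 461.1, 746.0 and 330.9 on the light pulse arrays, against 580.8, 426.1 and 651.3 on the sham light pulse arrays. The log2 change was -0.17 (SE 0.35), with a 95% confidence interval from -0.93 to 0.59. Crtc2 and Crtc3 encode coactivators that enter the nucleus when dephosphorylated. Crtc2 had 8.7, 71.7 and 138.0 on the light pulse arrays, against 29.4, 59.0 and 5.0 on the sham light pulse arrays. Crtc3 had 14.8, 64.1 and 92.2 on the light pulse arrays, against 25.2, 113.3 and 59.1 on the sham light pulse arrays. Signals of both overlapped between the groups and lay near the floor.

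Other genes of the pathway were counted from lists of upstream and downstream steps. No gene of the lists for ligands and receptors, G protein α subunits, other cAMP effectors, PKA inhibitors, CREB kinases, kinases and phosphatase of CRTC, CREB phosphatases, or related bZIP factors passed limma's test, and Cyber-T called 0 as well. At an unadjusted p under 0.05 limma had Vip and Creb3l2 higher and Gnas lower. These were 1 of 4 tested ligands and receptors, 1 of 4 related bZIP factors and 1 of 6 G protein α subunits. Over all genes tested the share was 4.14%. Cyber-T had 0, 2 and 1 genes of these lists at such a p. Of 4 tested ligands and receptors, 2 lay above and 2 below 0. Vip, a peptide of SCN neurons whose receptor raises cAMP, had a log2 change of 0.43 (SE 0.19, adjusted p = 0.960), and the GABA-B receptor gene Gabbr1 0.15 (SE 0.24). Of 6 tested G protein α subunits, 3 lay above and 3 below 0. Gnas, the stimulatory α subunit that activates adenylyl cyclase, had signals of 9349, 9136 and 9235 on the light pulse arrays, all below the 11334, 12973 and 14841 on the sham light pulse arrays. The difference on the log2 scale was -0.49 (SE 0.19, adjusted p = 0.960 from limma). Over all genes tested 4.38% lay wholly below. The Gnas probe set ends in _s_at, so it may read more than 1 transcript. Gnai1, an inhibitory subunit, had -0.18 (SE 0.20).

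The 3 PKA inhibitors were all tested, and their range was -0.19 to 0.15, from Pkia to Pkig, the 2 with the highest signals. Of the genes listed as other cAMP effectors 3 were tested, all above 0, with Rapgef3 (Epac1) at 0.26 (SE 0.49) and the hyperpolarization-activated channel Hcn3 at 0.27 (SE 0.41). Of 4 tested CREB kinases 3 lay above 0, with Rps6ka3 (RSK2) at 0.38 (SE 0.39), Camk2b at 0.57 (SE 0.42) and Camk1 at 1.26 (SE 0.80). The Camk1 signals ran from 23.4 to 281.1 and straddled the filter. Camk2g was at -0.38 (SE 0.32). Of the regulators of CRTC 3 were tested, all of them calcineurin subunits, with the regulatory subunit Ppp3r1 at 0.30 (SE 0.25) and Ppp3ca at -0.08 (SE 0.30). The catalytic subunits of protein phosphatases that act on CREB, Ppp1cc and Ppp2ca, had 0.02 (SE 0.18) and -0.11 (SE 0.20). Of the related bZIP factors 2 of 4 lay above 0. Creb3l2 was at 1.08 (SE 0.47) and Atf4, a factor of the integrated stress response, at 0.71 (SE 0.35, adjusted p = 0.960 for both from limma). Atf2 was at -0.31 (SE 0.23) and Crebzf at -0.36 (SE 0.35). The Atf4 probe set ends in _x_at and that of Atf2 in _s_at.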

How the data were processed

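RNA of laser-captured SCN was measured on 6 arrays. The deposited intensity of each probe set was calculated by the authors with the MAS5 algorithm, on a linear scale, and scaled per array. Such scaling sets arrays to a common level, and signals near the floor vary widely on a log scale. The table used holds no present calls, so the filter was the rank 3 signal, with the cutoff set to keep the number of probe sets that passed the study's present-call filter. Each pool gave 1 ng of total RNA, amplified linearly in 2 rounds. Trimmed mean signals ran from 491.9 to 495.3, and correlations of log2 signals between arrays from 0.886 to 0.935. It is not stated if pools shared animals. The p-values cover the spread among these pools, and precision is limited by 3 arrays in each group.

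Sample titles gave the groups and replicate numbers. The platform annotation named the probe sets, and 1 probe set that matched the rule, that of Atf1, was left out because it carries several symbols. Log2 signals were compared with limma 3.58.1 under R 4.3.3, using a trended prior, two-sided tests and Benjamini-Hochberg adjustment over 10340 probe sets with a threshold of 0.05. The authors' Cyber-T was rewritten here (window 101, prior weight 10). Both were tested on simulated data. Named genes were the 2 of each class or list with the highest signal, genes that passed the test, all CREB factors and coactivators, the 5 smallest p in each direction, genes whose groups do not overlap and genes with kept probe sets of opposite sign. Other genes were named after their values were seen. The members and lists were chosen with earlier results of these data known. The alternatives were no filter, a stricter one of 5000 probe sets, quantile or 75th percentile normalization, and an added offset of 50. Also used were no trended prior, Cyber-T and a replicate block. The rest were no probe sets ending in _s_at, _x_at or _a_at, means over a gene's probe sets, and leaving out each array. Sequences and their coordinates came from RefSeq. The marker sums without Vip and without Flt1 were added after seeing the data.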

Additional observations from a re-analysis of the deposited data

How the results depend on the processing

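No pathway gene was called under any of the 16 alternatives, and the lowest adjusted p of the 20 named and tested genes under them was 0.892. With all arrays the members' median log2 fold change ran from -0.14 (without probe sets ending in _s_at, _x_at or _a_at) to 0.09 (no filter). With 1 array left out it ran from -0.11 to 0.11, so its sign is not settled. The count of members whose groups do not overlap was 1; it was 4 of 45 with no filter, 0 with the mean over probe sets of a gene, and 2 to 4 of 23 with 1 array left out. Over all genes the share was 10.1% as reported, 10.3% with no filter, 10.5% with the mean, and 18.5% to 21.2% with 1 array left out. Of 310 values of the named genes under the alternatives, 290 kept their direction and 20 turned it. That share overstates how steady the directions are. Changing the filter, dropping the trended prior, using Cyber-T or adding the block left each gene's log2 fold change as it was, so those values could not turn. Without probe sets of those 3 endings Creb3 had a log2 fold change of -0.83, Prkar1a -0.18 and Prkar1b -0.12, since another probe set then stands for each. The probe set dropped for Prkar1a ends in _a_at. Prkar1a was at -0.054 with the mean over probe sets, and Pde7b at -0.00017 with quantile normalization. With 1 array left out the ranges that crossed 0 were -0.17 to 0.36 for Akap8, -0.48 to 0.11 for Crebbp, -0.47 to 0.43 for Crem, -0.93 to 0.016 for Pde6d, -0.35 to 0.47 for Pde7b, -0.068 to 0.48 for Prkaca and -0.089 to 0.32 for Prkar1a. Crem was at -0.12 without light pulse replicate 3, the array with the high Ttr signal, and at -0.47 without sham light pulse replicate 3. The cause of these turns between arrays was not tested.

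Replicate numbers are shared by the groups, and the labels do not state if they pair the arrays. The correlations of same-numbered arrays' deviations from their group means were 0.10, -0.19 and -0.13. Those of differently numbered arrays ran from -0.11 to 0.20. With 3 arrays per group such correlations cannot show if same-numbered arrays were processed together. With the replicate number as a block 0 members were called. The array signals give no counts, and 22 of the 45 genes did not pass the filter on low signals.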
